A study of Mus musculus with 3 samples.

Results

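Adult fat progenitors that still carried transcripts of the imprinted genes Mest and Peg3 were described here against progenitors of the same library in which neither was detected. The cells came from the stromal vascular fraction, the non-adipocyte cells released from epididymal white fat, of C57BL/6 male mice at 5 weeks of age. Their RNA was read as single-cell libraries with the 10x Genomics 3' version 3 chemistry, and a value is a count of unique molecular identifiers (UMIs, tags that mark single RNA molecules) for a gene in a cell barcode. Members were chosen by their own UMI counts. A barcode was a member if it had at least 1000 UMIs, at least 500 genes and at most 10% mitochondrial UMIs. It also needed at least 1 UMI each of Pdgfra, Mest and Peg3, and 0 UMIs of Dpp4, Pi16, Pparg, F3, Ptprc, Pecam1 and Upk3b. That rule found 106 barcodes, 1.30% of the 8131 passing barcodes of the 5-week library and a small part of the 25585 passing barcodes of the whole series. The study also has a library at postnatal day 3 (P3) and at postnatal day 7 (P7), of the same strain, sex and tissue. The P3 library pooled 10 mice, and 5 mice each were pooled for the P7 and the 5-week library, with no treatment or genetic change given in the labels. Mesothelial cells were also isolated, per the labels, which do not say whether they entered a library. Since no age has a replicate library, nothing was tested, and all intervals are 95% intervals of counting error only.

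Pdgfra encodes a receptor for platelet-derived growth factor and marks the stromal cells that can become adipocytes. The genes required to be at 0 mark the interstitial progenitors (Dpp4, Pi16), the committed preadipocytes (Pparg), the cells that regulate adipogenesis (F3), and blood, vessel and mesothelial cells (Ptprc, Pecam1, Upk3b). Imprinted genes are read from the allele of 1 parent. Mest, which encodes an enzyme of the hydrolase family and is known for its link to fat pad growth, and Peg3, which encodes a zinc finger protein, are read from the paternal allele. Many imprinted genes act on growth, are abundant in fetal and newborn tissue, and are turned down after birth.

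The windows around the starts of Mest and Peg3 are shown, with those of 2 further imprinted genes that accompanied them, Zim1 and Dlk1. Parental methylation marks are carried by CG pairs, which can be read in a sequence. Whether a window carries such a mark cannot be read from its sequence. Each window runs from 250 bases before to 50 bases after a start annotated by RefSeq on GRCm38.p6, and the CG pairs are in capitals. CG reads the same on both strands. Mest has 3 such windows, and the one with the most CG pairs is printed. It lies at chr6:30737800-30738099 on the plus strand, the Peg3 window at chr7:6730370-6730669 on the minus strand, the Zim1 window at chr7:6696383-6696682 on the minus strand and the Dlk1 window at chr12:109452573-109452872 on the plus strand.
Mest: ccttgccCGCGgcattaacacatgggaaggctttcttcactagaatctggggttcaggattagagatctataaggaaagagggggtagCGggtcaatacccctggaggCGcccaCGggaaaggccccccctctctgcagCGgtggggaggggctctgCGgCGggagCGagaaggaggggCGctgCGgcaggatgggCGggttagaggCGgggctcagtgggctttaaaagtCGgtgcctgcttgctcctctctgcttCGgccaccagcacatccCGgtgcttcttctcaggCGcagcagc
Peg3: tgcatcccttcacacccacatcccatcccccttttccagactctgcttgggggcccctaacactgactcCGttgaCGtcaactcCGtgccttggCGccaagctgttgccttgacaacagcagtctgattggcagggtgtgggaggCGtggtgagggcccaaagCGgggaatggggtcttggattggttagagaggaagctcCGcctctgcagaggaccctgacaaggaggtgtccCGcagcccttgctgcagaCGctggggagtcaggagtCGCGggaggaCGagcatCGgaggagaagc
Zim1: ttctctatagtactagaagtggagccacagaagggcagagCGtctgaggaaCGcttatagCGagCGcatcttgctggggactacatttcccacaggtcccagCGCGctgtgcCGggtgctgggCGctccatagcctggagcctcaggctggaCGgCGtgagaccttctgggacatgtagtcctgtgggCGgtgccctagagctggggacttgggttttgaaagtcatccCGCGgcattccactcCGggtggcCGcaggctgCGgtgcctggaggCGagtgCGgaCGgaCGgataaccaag
Dlk1: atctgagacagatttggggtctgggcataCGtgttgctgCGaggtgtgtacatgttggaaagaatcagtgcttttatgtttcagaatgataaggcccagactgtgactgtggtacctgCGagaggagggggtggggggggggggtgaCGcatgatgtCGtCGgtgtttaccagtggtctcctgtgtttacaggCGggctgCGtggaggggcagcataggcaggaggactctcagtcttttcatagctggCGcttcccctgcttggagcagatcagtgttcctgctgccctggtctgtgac
Mest holds 17 CG pairs, Peg3 13, Zim1 20 and Dlk1 9, against a median of 7 over the 32851 mouse windows of that length. As many CG pairs as in Mest were found in 31.4% of all windows, as many as in Peg3 in 37.9%, as many as in Zim1 in 26.5% and as many as in Dlk1 in 45.8%. These densities are therefore common among mouse gene starts. Methylation was not measured in this series.

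Of 3124 barcodes with Pdgfra at 5 weeks, 1499 had a UMI of F3, 1141 of Pi16, 760 of Dpp4, 566 of Pecam1, 500 of Pparg, 335 of Ptprc and 91 of Upk3b, and 558 had none of the 7. Those 558 were the eligible barcodes, and the members made up 19% of them (exact Clopper-Pearson interval 15.8 to 22.5%). A further 70 held Mest only, 125 held Peg3 only and 257 held neither. The conditions on the 7 genes removed most of the barcodes with Pdgfra, Mest and Peg3, of which there were 606 before them.

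Most members passed on few molecules. Mest was seen with 1 UMI in 59 members, with 2 in 19 and with 3 or more in 28, up to 20. Peg3 was seen with 1 UMI in 43 members, with 2 in 24 and with 3 or more in 39, up to 13. Pdgfra, the receptor gene, had 1 UMI in 22 members and 3 or more in 58. Just inside the rule stood 26 members with 1 UMI of each imprinted gene, and 30 members had 2 or more of each. Just outside it stood 45 barcodes with 1 UMI of Mest and no Peg3, and 82 with 1 UMI of Peg3 and no Mest. The summed level of Mest was 435 CPM (UMIs of the gene scaled to 1e+06 UMIs of the class sum) in members and 376 CPM in barcodes with Mest only, and that of Peg3 was 477 CPM in members and 333 CPM in barcodes with Peg3 only. These levels follow from the rule and are given as a description.

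**Figure D1:**
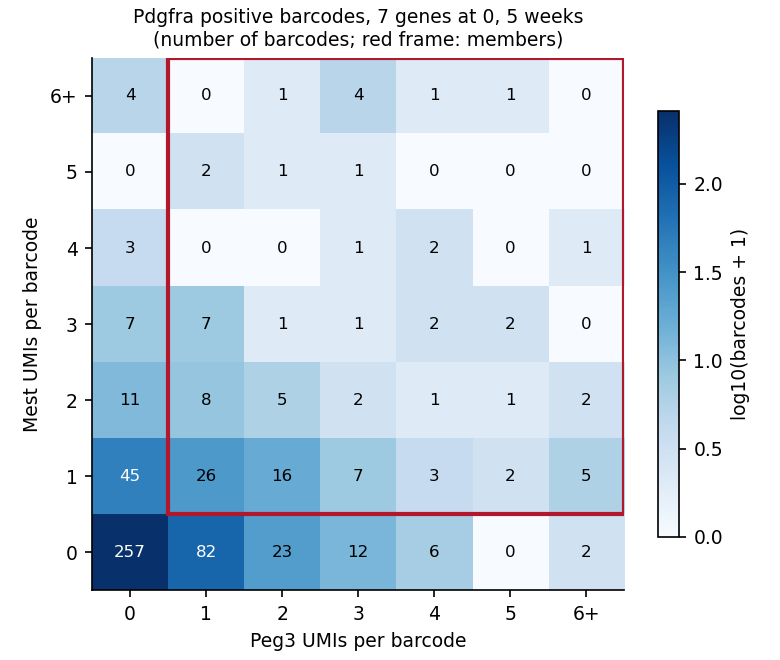
Number of eligible 5-week barcodes by their UMIs of Peg3 (horizontal axis) and of Mest (vertical axis), with the last step holding 6 or more and the colour showing the number of barcodes on a log10 scale. The red frame encloses the 106 members, 26 of which stand at 1 UMI of each gene, and the corner outside it holds the 257 barcodes with neither.

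Peg3 was detected in a larger share of the eligible barcodes with Mest than of those without it. It was detected in 106 of 176 eligible barcodes with Mest (60.2%, interval 52.6 to 67.5%) and in 125 of 382 without it (32.7%, interval 28.0 to 37.7%). Deep barcodes detect both genes more easily, and members were deeper, with a median of 5555 UMIs and 1985 genes against 4398 UMIs and 1754 genes in barcodes with neither. After each barcode had been thinned to 2000 UMIs, Peg3 was in 45 of 99 barcodes with Mest (45.5%, interval 35.4 to 55.8%) and in 85 of 429 without it (19.8%, interval 16.1 to 23.9%). The intervals did not overlap before or after thinning, but they hold only the counting error of barcodes from the same pooled library. Mest and Peg3 are also genes of the rule, so these shares are given as a description. Whether the genes are expressed together was not tested. Thinning left out the 30 eligible barcodes of under 2000 UMIs.

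The share of members among eligible barcodes followed depth. It was 6.67% of 30 barcodes with 1000 to 2000 UMIs, 9.84% of 61 with 2000 to 3000, 17.4% of 92 with 3000 to 4000, 18.9% of 249 with 4000 to 6000, 27.2% of 103 with 6000 to 8000 and 31.8% of 22 with 8000 to 12000. At 2000 UMIs per barcode 45 of 528 held both genes, 8.52% (interval 6.28 to 11.2%). The count of 106 is therefore a count at this depth and not of cells that express the genes.

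**Figure D2:**
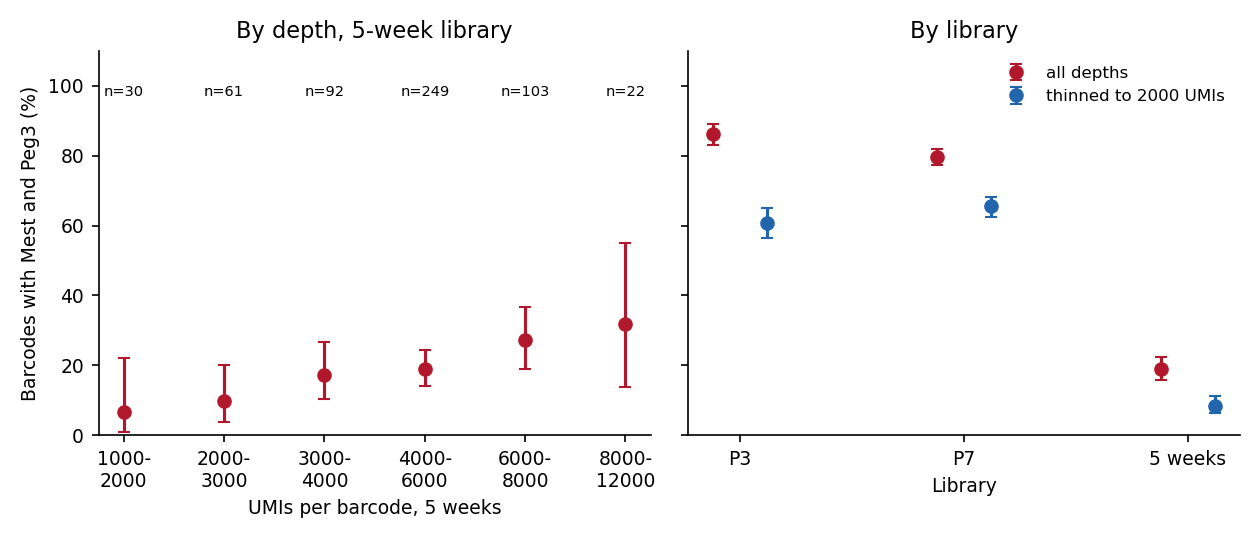
Share of eligible barcodes with both Mest and Peg3 (vertical axis, percent) by UMIs per barcode at 5 weeks (left) and by library (right), with Clopper-Pearson 95% intervals as bars. At 5 weeks the share runs from 6.67% in the shallowest to 31.8% in the deepest bin, and after thinning to 2000 UMIs it is 60.9% at P3, 65.5% at P7 and 8.52% at 5 weeks.

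Free RNA can place a UMI in a cell that does not express the gene. The 5-week library held 82940960 UMIs in all, 4.95% of them in near-empty barcodes of at most 100 UMIs. Summed over these, Mest stood at 76.5 CPM and Peg3 at 55.3 CPM at 5 weeks. Among 1432 barcodes with Ptprc, a marker of blood cells, but without Pdgfra, Pecam1 and Upk3b (median 3802.5 UMIs), 2.23% had Mest, 1.89% had Peg3 and 6 had both. Thinned to 2000 UMIs, 0.931% of blood cell barcodes had Mest, 1.19% had Peg3 and 0 of 1181 had both. The eligible progenitor barcodes, with a median of 4767 UMIs, had Mest in 31.5% and Peg3 in 41.4%, and in 18.8% and 24.6% after thinning. Endothelial barcodes with Pecam1, with a median of 6603 UMIs, had Mest in 32.0% and Peg3 in 13.6%, and 12.9% and 5.17% after thinning. Mest was thus not restricted to Pdgfra positive barcodes at 5 weeks.

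The members carried the markers of fat progenitors, which the label names. The 9 progenitor markers that the rule did not use (collagens, Dcn, Lum, Cd34, Dpt, Gsn, Serpinf1) summed to 73882 CPM in members and 71125 CPM in barcodes with neither, and every member had at least 5 of these UMIs. Dcn, which encodes the small proteoglycan decorin, stood at 15022 CPM in members and 16458 CPM in barcodes with neither. Gsn, which encodes the actin-severing protein gelsolin, was lower in members, at 16374 against 26819 CPM (log2 ratio -0.71, interval -0.75 to -0.68). Gsn was singled out after its values were seen.

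The summed markers of several other cell types differed between the classes. The 10 myeloid markers summed to 159.5 CPM in members, 299 CPM with Mest only, 815 CPM with Peg3 only and 1065 CPM with neither. Of these myeloid markers, 59 of 106 members and 159 of 257 barcodes with neither had no UMI, while 1 member and 11 barcodes with neither had 5 or more. The endothelial markers summed to 1047 CPM in members and 1624 CPM with neither. Only 2 of 106 members and 16 of 257 barcodes with neither had none of their UMIs, and 50 members and 131 barcodes with neither had 5 or more. Leaving out barcodes with 5 or more UMIs of myeloid, endothelial or erythroid markers left 55 members and 118 barcodes with neither. The mesothelial markers summed to 333 and 313 CPM. Erythroid markers went the other way, at 1346 against 237 CPM, with 5 or more UMIs in 2 members and 3 barcodes with neither. Markers of T, B, epithelial and Schwann cells each summed to under 50 CPM in both classes. Scrublet, a doublet caller, marked 1 of 106 members (0.943%), 7 of 257 barcodes with neither (2.72%) and 8.01% of all passing 5-week barcodes. The 5-week library shared 13 passing barcode sequences with P3 and 23 with P7, and 1 member was among them.

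UMIs were summed over the members and over the 257 barcodes with neither, and the ratio of the resulting CPM was taken for 3069 genes that reached 50 CPM in either class. A gene was counted as higher or lower if the ratio was past 1.5-fold, its interval lay beyond 1 and no barcode held over 25% of its UMIs in the higher class. The 10 genes of the rule were left out. By that rule 91 genes were higher in members (2.97% of the genes) and 136 were lower (4.43%). Counting error alone puts up to 5% of genes outside a 95% interval, so part of these counts cannot be told apart from it. A stricter interval with an error of 0.001, added after the data were seen, left 32 higher and 41 lower genes. Depth changed the counts little, with 92 higher and 145 lower genes once the barcodes with neither were weighted to the members' depth, of which 69 and 113 were shared with the unweighted counts.

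**Figure D3:**
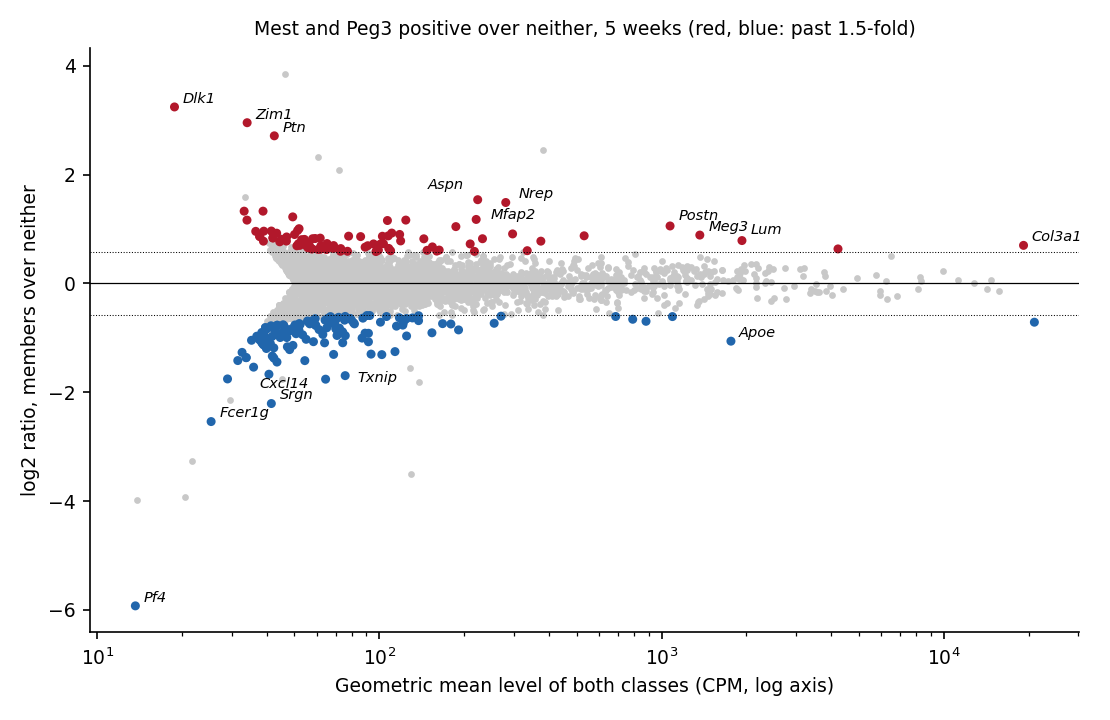
Log2 ratio of members over barcodes with neither gene (vertical axis) against the geometric mean level of both classes in CPM (horizontal log axis) for genes of at least 50 CPM in either class and above 0 in both, 5 weeks. Red points are the genes counted as higher and blue points those counted as lower, dotted lines mark 1.5-fold, and Dlk1, Zim1 and Ptn stand apart at log2 ratios of 3.24, 2.95 and 2.71.

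Among the genes counted as higher, the largest ratios belonged to other imprinted genes and to a growth factor gene, Ptn. Dlk1, a paternally read gene whose membrane protein restrains adipocyte formation, had 33 UMIs in 17 of 106 members and 7 UMIs in 5 of 257 barcodes with neither. Its level was 57.9 CPM (interval 39.8 to 81.2) in members, 17.1 CPM with Mest only, 19.8 CPM with Peg3 only and 6.11 CPM (interval 2.46 to 12.6) with neither, a log2 ratio of 3.24 (interval 2.04 to 4.67). Barcodes with only 1 of the imprinted genes lay between the others. Dlk1 stood at 6.82 CPM in free RNA.

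Zim1, a maternally read zinc finger gene, is the neighbour of Peg3 on chromosome 7 (GRCm38, GENCODE vM21). Zim1 spans 6671269 to 6696450 and Peg3 6703892 to 6730431, both on the minus strand, 7442 bases apart, so that their transcripts do not overlap. Zim1 had 54 UMIs in 29 members and 14 UMIs in 14 barcodes with neither. Its level was 94.7 CPM (interval 71.1 to 124) in members, 17.1 CPM with Mest only, 44.5 CPM with Peg3 only and 12.2 CPM (interval 6.68 to 20.5) with neither, a log2 ratio of 2.95 (interval 2.09 to 3.92). Barcodes with Peg3 only thus held more Zim1 than those with Mest only, though their intervals overlapped in part (29.3 to 64.7 and 6.27 to 37.2 CPM).

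Meg3, a maternally read long noncoding RNA, lies 77665 bases beyond Dlk1 on chromosome 12. Meg3 was at 1860.0 CPM in members, 1026 CPM with Mest only, 1340.2 CPM with Peg3 only and 1004 CPM with neither, a log2 ratio of 0.89 (interval 0.77 to 1.01). It was detected in 103 members and in 201 barcodes with neither. Grb10, whose protein binds the insulin receptor and restrains growth, was at 159.5 CPM in members, 108 CPM with Mest only, 102 CPM with Peg3 only and 71.5 CPM with neither, a log2 ratio of 1.16 (interval 0.71 to 1.61). Of the Dlk1 and Meg3 region 7 genes were listed and 5 detected. The 2 that reached 50 CPM, Dlk1 and Meg3, were both higher in members, against 2.97% of all genes. Dlk1 reached 50 CPM in the members and not with neither, so its side follows from the level limit. Dlk1 and Meg3 are read from opposite parental alleles.

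As a list, the imprinted genes besides Mest and Peg3 had no shift in common. Of 79 listed imprinted genes besides Mest and Peg3, 75 were in the gene list and 19 reached 50 CPM. Of these 19, 4 were higher (Dlk1, Zim1, Grb10 and Meg3) and 1 was lower, against 2.97% and 4.43% of all genes, and 10 had a ratio above 1. Dlk1 and Zim1 reached 50 CPM in the members and not with neither. The median log2 ratio of the 19 genes, with the 4 higher ones included, was 0.01, against -0.01 over all 3069 genes. The lower gene was Gatm, which encodes an enzyme of creatine synthesis, at 105 against 163 CPM, with 52% of its member UMIs in 1 barcode. Igf2, the fetal growth factor, had 0 UMIs in members and 3 UMIs with neither. H19, its noncoding neighbour, was at 38.6 CPM in members and 30.5 CPM with neither. Cdkn1c, an inhibitor of the cell cycle, was at 61.4 and 61.1 CPM, and Plagl1, a zinc finger regulator of imprinted genes, at 47.3 and 62.8 CPM. Ndn stood at 181 and 158 CPM and Gnas, which encodes a G protein subunit, at 819 and 737 CPM. The intervals of the ratio included 1 for H19, Cdkn1c, Plagl1, Ndn and Gnas.

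Ptn encodes pleiotrophin, a heparin-binding growth factor of developing mesenchyme. Ptn had 62 UMIs in 22 members and 19 UMIs in 11 barcodes with neither. Its level was 109 CPM (interval 83.3 to 139) in members, 37.0 CPM with Mest only, 34.6 CPM with Peg3 only and 16.6 CPM with neither (interval 9.98 to 25.9), a log2 ratio of 2.71 (interval 1.95 to 3.54). In free RNA Ptn stood at 62.6 CPM, above the barcodes with neither and below the members. Over 13 other settings of the rule and of the comparison, the log2 ratio ran from 0.87 to 3.47 for Dlk1, from 0.41 to 3.46 for Zim1 and from 1.83 to 4.05 for Ptn. The lowest value of Dlk1 came from the rule applied after thinning, and that of Zim1 from a mitochondrial limit of 5% that left 9 members.

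Matrix genes of young mesenchyme followed with smaller ratios and far more UMIs. Of 38 listed perinatal or embryonic mesenchyme genes, 17 reached 50 CPM. Of these, 6 were higher (Dlk1, Ptn, Aspn, Mfap2, Postn and Lum) and 1 was lower, against 2.97% and 4.43% of all genes, with a median log2 ratio of 0.25 against -0.01 over all genes. Dlk1 and Ptn reached 50 CPM in the members and not with neither, so their place in that count follows from the level limit. The lower gene was Marcksl1, at 63.1 against 104 CPM, named after its values were seen. Aspn, which encodes the small proteoglycan asporin, was at 380.4 CPM in members, 279 CPM with Mest only, 207 CPM with Peg3 only and 131 CPM with neither (log2 ratio 1.54, interval 1.23 to 1.85). Postn, which encodes the matrix protein periostin, was at 1546, 1219, 1049 and 743 CPM in the same order of classes (log2 ratio 1.06, interval 0.92 to 1.19). Mfap2, a component of elastic microfibrils, was at 331, 194, 181 and 147 CPM (log2 ratio 1.18, interval 0.87 to 1.49). In each of these matrix genes the members were highest and the barcodes with neither lowest.

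Of 45 fibrillar and interstitial matrix genes 38 reached 50 CPM, and 6 were higher and 0 lower, against 2.97% and 4.43% of all genes, with a median log2 ratio of 0.19 and 30 ratios above 1. Postn, Mfap2 and Lum, among the higher ones, are also on the mesenchyme list, so the counts of these lists are not separate. Col3a1, which encodes a fibrillar collagen chain, was at 24446 CPM in members and 15048 CPM with neither (log2 ratio 0.70). Col1a1 was at 5259 and 3387 CPM, and Lum, which encodes the collagen-binding lumican, at 2533 and 1467 CPM. Eln, the gene of elastin, was at 270.0 and 163 CPM. The whole list summed to 91613 CPM in members, 88295 CPM with Mest only, 80765 CPM with Peg3 only and 73315 CPM with neither. Of 19 basement membrane genes 15 reached 50 CPM, and 0 were counted as higher or lower, against 2.97% and 4.43% of all genes.

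**Figure D4:**
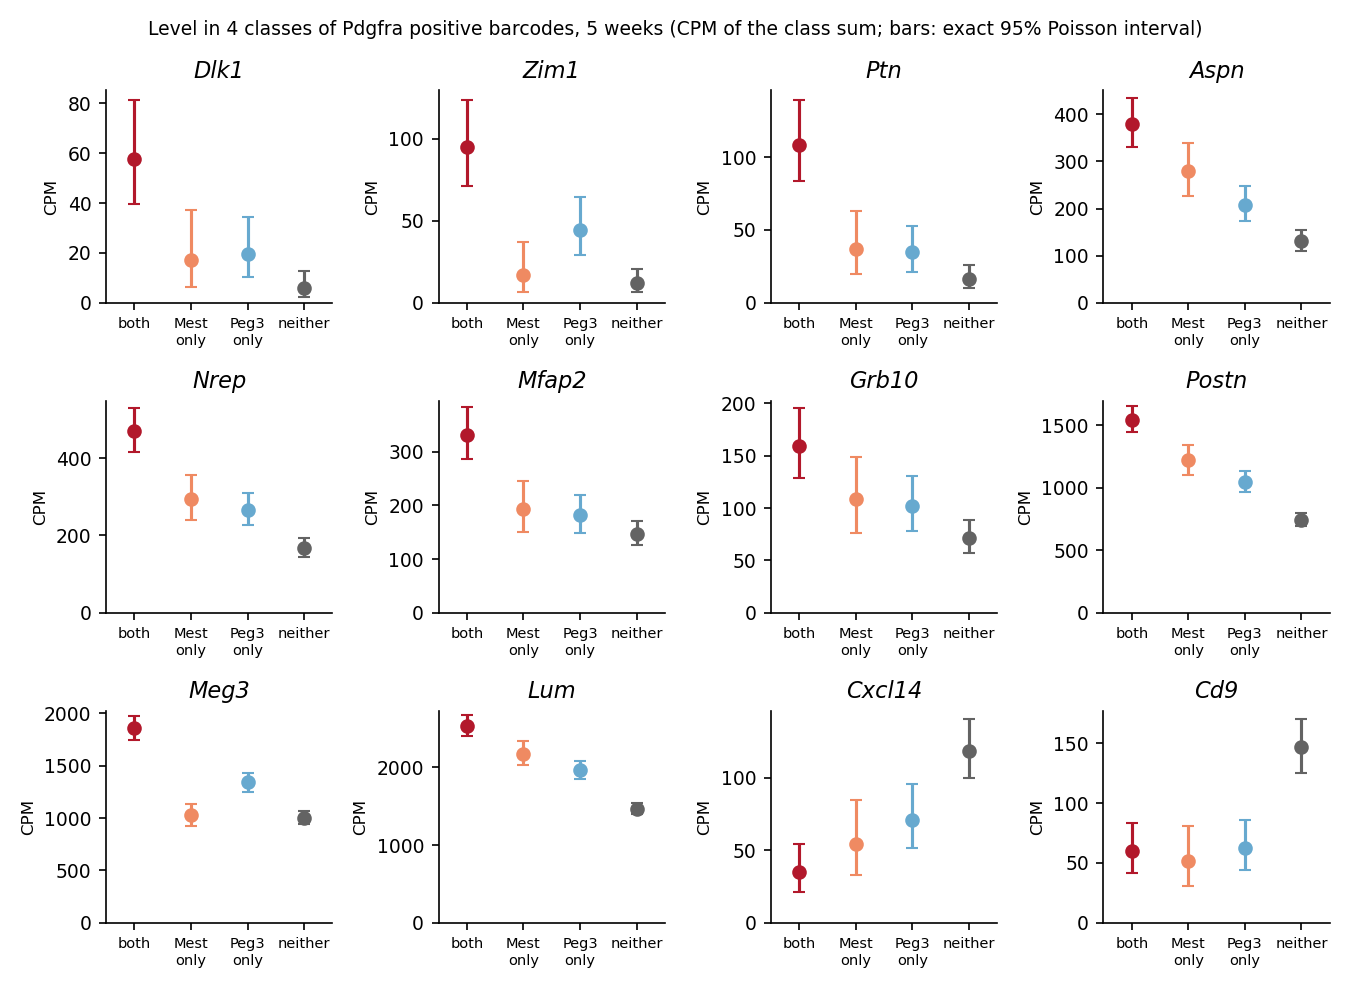
Level in CPM (vertical axes, from 0) of 12 genes in 5-week barcodes with both Mest and Peg3 (106), Mest only (70), Peg3 only (125) and neither (257). Points are the level of the class sum and bars the exact Poisson 95% intervals, with the barcodes of both genes highest for 10 of the 12 genes and the barcodes of neither highest for Cxcl14 and Cd9.

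Genes of signalling, of the cell surface and of other functions differed less evenly. Nrep, a regulator of transforming growth factor signalling, was at 469.8 CPM in members and 168 CPM with neither (log2 ratio 1.49, interval 1.21 to 1.76), with UMIs in 79 members and 95 barcodes with neither. Igfbp3, which binds insulin-like growth factors, was at 186 CPM in members, 222 CPM with Mest only, 148 CPM with Peg3 only and 82.9 CPM with neither. Among Wnt pathway genes 1 of 8 was higher, against 2.97% of all genes. It was the secreted Sfrp2, at 116 and 63.7 CPM, whose log2 ratio turned to -0.31 with only Ptprc, Pecam1 and Upk3b at 0 (430 members). Of 13 TGF-beta and BMP genes at 50 CPM, 0 were counted as higher or lower, against 2.97% and 4.43% of all genes. Vegfa, the vessel growth factor, was higher at 146 against 79.4 CPM. Its log2 ratio turned to -0.32 when the rule was applied after thinning and to -0.37 with the mitochondrial limit of 5%. Of 16 surface markers of stromal progenitors at 50 CPM, 2 were higher and 2 lower, against 2.97% and 4.43% of all genes. Of these 16, 6 had a ratio above 1, and the median log2 ratio was -0.14. The higher ones were Thy1 and Fap, surface proteins of fibroblasts, at 112 against 70.7 CPM and at 119 against 79.4 CPM. The lower ones were Ly6c1, at 109 against 175 CPM, and the tetraspanin Cd9, at 59.6 against 147 CPM. Prlr, the prolactin receptor, was at 61.4 and 24.4 CPM.

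After thinning to 2000 UMIs, genes could be ranked by how much more often they were detected in members. Itm2a, a membrane protein gene, was then found in 73.1% of members and 42.3% of barcodes with neither. Nrep was found in 53.8% and 25.6%, Mfap2 in 49.0% and 21.8%, Plac8 in 42.3% and 17.1%, and Ifi27l2a, an interferon-responsive gene, in 51.0% and 30.3%. Of 23 MHC class I and interferon genes at 50 CPM, 2 were higher (Tap1 and H2-T22) and 0 lower, against 2.97% and 4.43% of all genes, and the median log2 ratio was -0.06. Tap1 and H2-T22 reached 50 CPM in the members and not with neither, so their place in that count follows from the level limit. Cxcl10, a chemokine induced by interferon, was at 407 against 216 CPM, with 20% of its member UMIs in 1 barcode.

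Several genes of committed preadipocytes were lower in members, as were 4 lipid storage genes, while the median ratio of the lipid storage list was near that of all genes. Of 24 listed preadipocyte genes besides Pparg, 19 reached 50 CPM. Of these, 8 were lower and 1, Dlk1, was higher, against 4.43% and 2.97% of all genes, 8 had a ratio above 1, and the median log2 ratio was -0.26. Dlk1 reached 50 CPM in the members and not with neither, and Cxcl14 and Plin2 with neither and not in the members. The place of these genes in that count therefore follows from the level limit. Of 13 adipogenic and lipid storage genes at 50 CPM, 4 were lower and 0 higher, against the same shares of all genes. Of these 13, 7 had a ratio above 1, and the median log2 ratio was 0.03. The 4 lower genes were Fabp4, Cd36, Plin2 and Adipor1. Fabp4, Cd36 and Plin2 are on both lists, so the 2 counts are not separate. Plin2 and Adipor1 reached 50 CPM with neither and not in the members. Cxcl14, a chemokine gene of preadipocytes, was at 35.1 CPM in members, 54.1 CPM with Mest only, 70.8 CPM with Peg3 only and 119 CPM with neither (log2 ratio -1.76, interval -2.52 to -1.08). G0s2, an inhibitor of lipolysis, was at 73.6 CPM in members and between 175 and 181 CPM in the other classes. Apoe, the lipoprotein gene, was at 1220.1 CPM in members, 2376 CPM with Mest only, 2353 CPM with Peg3 only and 2544 CPM with neither, and was singled out after its values were seen. Plin2, which coats lipid droplets, was at 26.3 and 68.1 CPM. The fatty acid carriers Fabp4 and Cd36 were at 885 against 1349.8 CPM and at 61.4 against 123 CPM. Fabp4 stood at 12554 CPM and Cd36 at 1488 CPM in free RNA, above every class, and neither was lower once barcodes with 5 or more UMIs of myeloid, endothelial or erythroid markers, Fabp4 being on the endothelial list, were left out (log2 ratios 0.041 and 0.25).

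Several genes of macrophages and other blood cells were lower in members. Of 7 myeloid markers at 50 CPM, 0 had a ratio above 1, against 49.5% of all genes, and 1 was counted as lower, against 4.43%. C1qa, C1qb, C1qc and Fcer1g reached 50 CPM with neither and not in the members, so their side follows from the level limit. Pf4, a platelet and macrophage chemokine, had 1 UMI in members and 122 UMIs in 18 barcodes with neither, and is among the lower genes. C1qb, a complement gene of macrophages, had 0 and 112 UMIs but was not counted as lower, since 1 barcode held 33.0% of its UMIs with neither. Fcer1g, an immune receptor subunit, was at 10.5 and 61.1 CPM, and Srgn, the proteoglycan of secretory granules, at 19.3 and 89.0 CPM. These differences moved with the summed myeloid markers given above, of which 11 barcodes with neither had 5 or more UMIs. Without the 23 barcodes of a cluster led by Lyz2 and C1q genes, the log2 ratio of Pf4 was -2.05, and the counts were 86 higher and 134 lower genes.

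Early response genes, which respond within minutes to stress and to tissue digestion, were lower for 4 of 37 (Fosl1, Egr2, Klf6 and Gadd45g) and higher for 0, against 4.43% and 2.97% of all genes, with a median log2 ratio of -0.19. Fosl1 reached 50 CPM with neither and not in the members, so its place in that count follows from the level limit. With a mitochondrial limit of 5%, which left 9 members, the log2 ratio turned to 0.45 for Egr2, 0.58 for Klf6 and 0.27 for Gadd45g. Gadd45g was at 692 CPM in members and 1121 CPM with neither. Txnip, a sensor of glucose supply, was at 42.1 and 136 CPM in the same order. Whether handling of the tissue had a part in these differences was not tested.

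Dlk1, Zim1 and Ptn were detected in 17, 29 and 22 of the 106 members. At least 1 of the 3 was detected in 50 of 106 members (47.2%, interval 37.4 to 57.1%), in 15 of 70 barcodes with Mest only (21.4%), in 33 of 125 with Peg3 only (26.4%) and in 28 of 257 with neither (10.9%, interval 7.36 to 15.4%). Thinned to 2000 UMIs, the share was 27.9% of 104 members (interval 19.5 to 37.5%), 4.35% with Mest only, 15.7% with Peg3 only and 6.84% of 234 with neither (interval 3.96 to 10.9%). At least 2 of the 3 were found in 16 members and in 2 barcodes with neither. These genes were picked because their ratios were the largest, so the shares describe how they were spread.

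The levels within the members were also set out by their UMIs of Mest and Peg3, as a description only, since these are the genes of the rule. Members were split into 26 with 1 UMI of each gene, 50 with 2 or more of Mest or of Peg3 but not of both, and 30 with 2 or more of each, with median depths of 5464, 4866 and 6055 UMIs. Zim1 was at 29.5, 101 and 135 CPM in that order, and Dlk1 at 22.2, 70.1 and 67.4 CPM. Between the first and the next group the intervals overlapped for Zim1 (8.05 to 75.6 and 66.1 to 148 CPM) and for Dlk1 (4.57 to 64.7 and 41.5 to 111 CPM). They also overlapped for Postn (999 to 1372 and 1264 to 1558 CPM) and for Mfap2 (174 to 351 and 257 to 401 CPM). Aspn was at 177, 417 and 483 CPM, Postn at 1174, 1405 and 2032 CPM, and Mfap2 at 251, 323 and 404 CPM. The members with 1 UMI of each gene held 3 Dlk1 UMIs in 2 barcodes, and their 9 Ptn UMIs all came from 1 barcode. Meg3, at 1861, 1752 and 2015 CPM, and Grb10, at 229, 128 and 152 CPM, did not rise from group to group.

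When the 558 eligible barcodes were clustered without the 10 genes of the rule, the members were not a cluster of their own. At Leiden resolution 0.5 there were 5 clusters. A cluster of 213 barcodes led by Ly6c1, Ptgs2 and Pcolce2 held 62 of the members (58.5%, interval 48.5 to 68.0%) and 82 of the barcodes with neither (31.9%, interval 26.3 to 38.0%). Ly6c1 and Pcolce2 are listed interstitial progenitor genes. Of 15 such genes at 50 CPM, 0 were higher in members and 1, Ly6c1, was lower, against 2.97% and 4.43% of all genes. The median log2 ratio of the 15 was 0.11. A cluster of 256 barcodes led by Gatm, Apoe, Agt and Cxcl14 held 34 members (32.1%) and 131 barcodes with neither (51.0%). At resolution 1.0 a cluster of 53 barcodes led by the interferon-responsive genes Cxcl9, Ifit1 and Ifit3 held 26 members (24.5%) and 11 barcodes with neither (4.28%). Members made up 49.1% of that cluster (interval 35.1 to 63.2%) and at most 33.3% of any other. The clusters were left without cell type names. Within the cluster of 213 barcodes, 133 genes were higher and 135 lower in its 62 members, of which 43 and 35 were shared with the whole comparison.

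**Figure D5:**
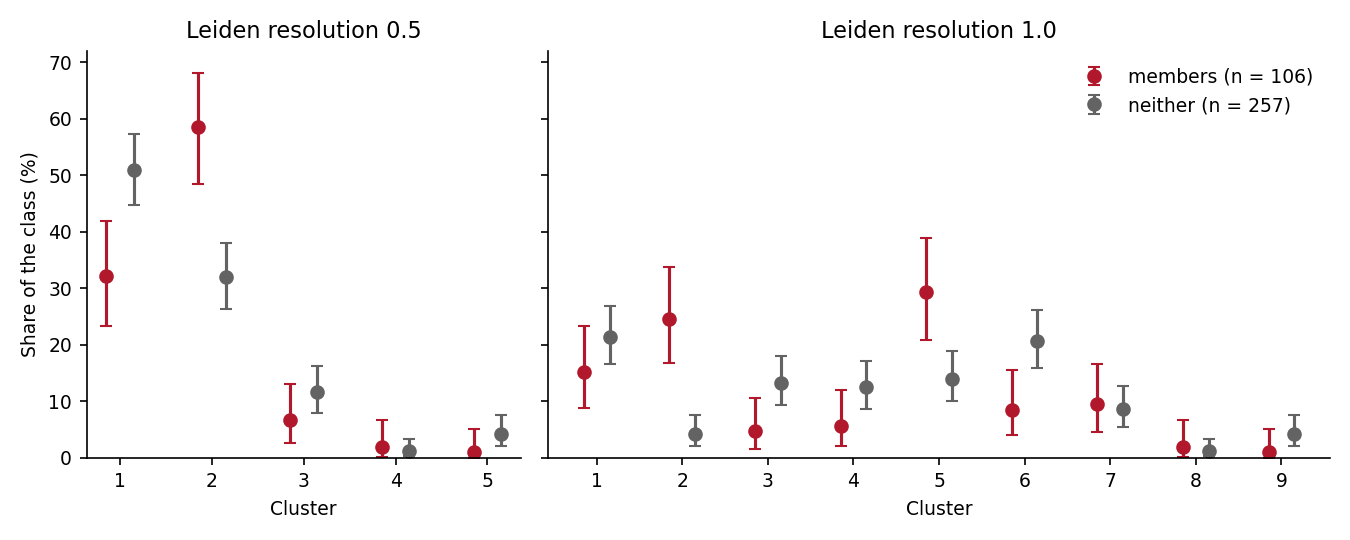
Share of the 106 members (red) and of the 257 barcodes with neither gene (grey) in each cluster of the eligible 5-week barcodes (vertical axis, percent, with Clopper-Pearson 95% intervals) at 2 Leiden resolutions. Members are spread over all clusters at both resolutions, with 58.5% in cluster 2 at resolution 0.5 and 24.5% in cluster 2 at resolution 1.0.

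In the newborn libraries most eligible barcodes met the same rule. At P3, 477 of 553 eligible barcodes held both genes (86.3%, interval 83.1 to 89.0%), and at P7 971 of 1218 did (79.7%, interval 77.4 to 81.9%). Thinned to 2000 UMIs, these shares became 60.9% and 65.5%, beside the adult 8.52%. Free RNA held more of both genes in the newborn libraries, at 419 CPM of Mest and 540.2 CPM of Peg3 at P3. Blood cell barcodes at P3 had both genes in 3.14% after thinning. The 5-week file was written by another software version with another gene list, and there is 1 library per age, so these cannot be told apart from age.

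The adult members differed from the newborn barcodes with both genes in level. Mest was at 435 CPM at 5 weeks against 1112 CPM at P3 and 979 CPM at P7, and Peg3 at 477 CPM against 1157 and 1798 CPM. Dlk1 was at 57.9 CPM in adult members against 2875 CPM at P3 and 3151 CPM at P7, and Ptn at 109 CPM against 3170.2 and 3674 CPM. H19 was at 38.6 CPM against 949 and 1372 CPM, and Cdkn1c at 61.4 CPM against 1672 and 1045 CPM. Zim1, at 94.7 CPM (interval 71.1 to 124), was close to its P3 level of 101 CPM and below its P7 level of 174 CPM (interval 162 to 188). Aspn, at 380.4 CPM, lay between 299 and 452 CPM. Nrep was higher in adult members, at 469.8 CPM against 143 and 207 CPM. Adult levels were thus between the newborn ones for Aspn, below them for Dlk1, Ptn, H19 and Cdkn1c, and above them for Nrep.

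The contrast of both genes against neither could be repeated in the newborn libraries, which the adult rule did not use, but there only 20 barcodes at P3 and 31 at P7 held neither. Of the 91 genes higher at 5 weeks, 54 reached 50 CPM at P3, and 36 of them (66.7%) had a ratio above 1 there, against 39.0% of all 4006 genes. At P7 47 of 62 (75.8%) had a ratio above 1, against 46.5% of 3970 genes. Of the 136 lower genes, 53 of 82 (64.6%) were on the same side at P3 against 61.0% of all genes, and 48 of 85 (56.5%) at P7 against 53.5%. Among named genes Dlk1 had a log2 ratio of 2.73 at P3 and 1.33 at P7, Ptn 2.27 and 2.47, Postn 2.32 and 1.33, and Meg3 1.95 and 1.32. Mfap2 had 0.11 at P3 (interval -0.15 to 0.38) and 0.83 at P7, and for Grb10 (0.63 and 0.65) both intervals included 0. Genes not counted as higher at 5 weeks had ratios of like size at P3, with 1.99 for Cdkn1c and 1.93 for H19. C1qb stood at 578 CPM at P3 and 1290.0 CPM at P7 in the barcodes with neither, against 35.7 and 90.7 CPM in those with both, so macrophage transcripts were higher in the newborn barcodes with neither as well. Dcn, Col3a1 and Col1a1 were lower in the newborn barcodes with neither. Dcn stood at 3137 CPM at P3 and 7934 CPM at P7 there, against 12540 and 13659 CPM with both. At 5 weeks Dcn stood at 16458 CPM with neither and 15022 CPM in members. The log2 ratios at P3 were 1.90 for Col3a1 and 1.98 for Col1a1, against 0.70 and 0.63 at 5 weeks. Pdgfra, a gene of the rule, went the other way at P3 (-0.98). The part of these progenitor and macrophage transcripts in the ratios and in the shares above was not tested.

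Few members carried transcripts of cell division. A UMI of Mki67 or Top2a, genes of dividing cells, was found in 5 of 106 members (4.72%, interval 1.55 to 10.7%) and in 6 of 257 barcodes with neither (2.33%, interval 0.861 to 5.01%). After thinning these were 2.88% and 2.14% at 5 weeks, against 14.2% of barcodes with both genes at P3 and 6.34% at P7. Of 35 cell cycle genes 9 reached 50 CPM, and 0 were counted as higher or lower, against 2.97% and 4.43% of all genes. The difference between members and barcodes with neither was not detectable at this depth.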

How the data were processed

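Single-cell RNA was measured in 1 library each at P3, P7 and 5 weeks. The deposited matrices hold raw UMI counts per gene and barcode, unfiltered and not normalised by the authors, with 81307312, 76968353 and 82940960 UMIs in that order. Cell Ranger 3.1.0, Seurat 4.0.3 and the mm10 build are named in the submitters' processing notes. The 5-week matrix comes from software version 3.0.0 with a list of 27998 genes, the newborn ones from 3.1.0 with 31053, per the file headers. Comparisons between ages used the 27514 shared gene identifiers, and genes are named as the deposited gene lists give them.

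Members, gene lists and comparisons were chosen with earlier results of these data known. Counts were summed per class and scaled to CPM, with exact Poisson intervals for levels, exact Clopper-Pearson intervals for shares and exact conditional binomial intervals for ratios, all at 95%. Shares were repeated after each barcode had been thinned to 2000 UMIs (seed 7). Scrublet (expected rate 0.06) marked doublets, which were kept and left out in an alternative. Eligible barcodes were clustered without the rule's genes after scaling to 10000 counts, with 2000 variable genes, 30 components and 15 neighbours. Named genes were the 10 of the rule, the 12 largest ratios in each direction, imprinted genes at 50 CPM with 5 fixed ones, up to 4 genes of each other list with the largest ratios, and the 8 with the largest difference in detection after thinning. Ratios and calls were tested on simulated counts. The alternatives were other depth, UMI, mitochondrial, level and fold limits, scaling, doublets and rule genes. The tools were scanpy 1.11.5 (which holds Scrublet), igraph 0.11.9, SciPy 1.17.1, pandas 2.3.3 and numpy 2.4.6, run in Python 3.11.15, and matplotlib 3.10.9. Gene positions are those of GENCODE vM21.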

Additional observations from a re-analysis of the deposited data

Results flagged for a closer look

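For 7 genes counted as higher or lower at 5 weeks, the log2 ratio of barcodes with both Mest and Peg3 over those with neither lay on the other side of 0 in a newborn library, with both intervals beyond 0. At P3 these were Fabp4, the fatty acid carrier (2.73, against -0.61 at 5 weeks), Txnip (1.32, against -1.69) and Cd9 (2.51, against -1.30). They rest on few molecules in the P3 barcodes with neither. Fabp4 had 2 UMIs there (interval of the log2 ratio 0.87 to 5.78), Cd9 1 UMI (interval 0.02 to 7.82) and Txnip 9 UMIs (interval 0.39 to 2.45). At P7 they were Thy1 (-3.46, against 0.67 at 5 weeks), Igfbp3 (-1.09, against 1.16), the interferon-responsive Ifi27l2a (-3.50, against 0.60) and Tap1 (-2.29, against 0.82). Tap1 had 5 UMIs in the P7 barcodes with neither (interval -3.62 to -0.61). The classes with neither gene held 20 barcodes at P3 and 31 at P7, and the difference between the ages was not tested.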

How the results depend on the processing

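Of 57 named genes counted at 5 weeks, 34 kept their direction under each of up to 13 settings in which they had a value, and 12 of them stayed past 1.5-fold. Members numbered 106 (19% of eligible barcodes). With at least 2 UMIs of both imprinted genes there were 30 (5.38%) and 143 higher genes, sharing 37 of the 91 higher and 60 of the 136 lower genes. With a mitochondrial limit of 5% there were 9 (13.4%) and 32 higher genes, sharing 1 and 6. With the rule applied after thinning there were 60 (7.59%), sharing 25 and 51; with at least 2 UMIs of Pdgfra, 22.6%. With only Ptprc, Pecam1 and Upk3b at 0, 35 genes were higher and 47 lower. The counts were 172 and 293 at a minimum of 10 CPM, 17 and 12 at 200 CPM, 15 and 40 past 2-fold, and 32 and 41 with an interval error of 0.001. At Leiden resolution 1.0 the fullest cluster held 29.2% of members. Median scaling moved all ratios by 0.0066.

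Log2 ratios reversed for Gatm (0.42) and Kitl (0.035) with 2 UMIs of both genes. With the 5% limit they did for Adipor1 (1.41), G0s2 (1.38), Srgn (0.998), Klf6 (0.58), Angptl4 (0.58), Egr2 (0.45), Cd9 (0.41), Gadd45g (0.27), Thy1 (-0.32) and Vegfa (-0.37). After thinning they did for C4b (0.44), Gatm (0.32), Cxcl10 (-0.0023), Vegfa (-0.32) and H2-T22 (-0.78), and with only 3 genes at 0 for Dnm1 (-0.00051) and Sfrp2 (-0.31). Without barcodes of other markers, 34 higher and 45 lower genes were shared, and the ratios reversed for Fabp4 (0.041) and Cd36 (0.25), and within cluster 2 for Gatm (2.12), Fcer1g (1.12), Car3 (0.65), Cd36 (0.53), Plin2 (0.44) and Ccl6 (0.12). These last 2 settings, the stricter interval, and leaving out cluster 5 or the barcode with the most UMIs of the gene were chosen after seeing the data. The causes were not tested, apart from fewer barcodes or genes entering.

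No paired analysis was possible because each age has 1 library. For the same reason no replicate was left out.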
